A study of Mus musculus with 7 samples.

Results

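The natriuretic peptide receptors and the type I cyclic GMP-dependent kinase were followed in groin fat (inguinal white adipose tissue, a subcutaneous depot) of NOD/ShiLtJ mice, which are prone to autoimmune diabetes. The 4 genes, Npr1, Npr2, Npr3 and Prkg1, were taken by name from a table of 55487 genes, and each was found there once. They were selected on earlier values of the imBAT against sham comparison described below, in which Npr3 stood out, so their levels are given as a description without a test. All mice had a blood glucose of 190 to 230 mg/dL before treatment. In the 4 libraries called imBAT, the mice had been injected subcutaneously for 7 days, at 1.5 mg/kg body weight, with the proteins above 100 kDa from buffer that brown adipocytes had conditioned. In the 3 libraries called sham, the injection was KRBH buffer. The tissue was collected 2 to 8 weeks afterwards, with no week, age or sex given per library. The labels do not say that each library is a separate mouse, so p-values capture variation among libraries that may be technical.

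Natriuretic peptides are hormones of the heart, vessels and brain that lower blood pressure and, in human fat cells, stimulate lipolysis. Npr1 binds the atrial and B-type peptides and Npr2 the C-type peptide. Both receptors carry an intracellular guanylate cyclase domain that makes cyclic GMP. Npr3, the clearance receptor, binds all of these peptides, lacks the cyclase domain, takes the peptides up for breakdown and can couple to inhibitory G proteins. Prkg1 encodes the kinase that cyclic GMP activates, which acts on smooth muscle tone and, in adipocytes, on the lipase that releases fatty acids.

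The libraries held 41025786 to 63650016 counts. The tissue label was met by adipocyte markers in every library, but at very different levels. Adiponectin (Adipoq) stood at 76.5 to 183.2 CPM (read counts relative to the TMM-scaled library total) in sham and at 606.6 to 1683 CPM in imBAT. The summed level of 12 white adipocyte markers, all of which rose, ran from 2297 to 4907 CPM in sham and from 14067 to 33825 CPM in imBAT. All 10 T cell and all 8 B cell markers fell, and the T cell sum ran from 1366 to 1727 CPM in sham and from 223.8 to 725.5 CPM in imBAT. Of 9 macrophage markers 6 rose, all 8 tested mammary epithelium markers rose, and 5 of 6 lymph node stroma markers fell. No marker of these lists was at 0 in all libraries. Of 26393 genes tested, 43.5% were called (edgeR quasi-likelihood test, adjusted p under 0.05), 24.3% higher and 19.3% lower in imBAT. In bulk tissue, fewer cells of a type and less RNA per cell cannot be told apart. The part of these cell-type markers in the levels of the 4 genes was not tested.

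The gene models show how Npr3 differs from its 2 relatives. On the GRCm38 build Npr1 lies on chromosome 3 at 90450591 to 90465866, Npr2 on chromosome 4 at 43631935 to 43651244, Npr3 on chromosome 15 at 11839896 to 11907287 and Prkg1 on chromosome 19 at 30564489 to 31765033, with Npr2 alone on the plus strand. The longest coding sequence has 1057 codons in Npr1 and 1047 in Npr2, each in a transcript of 22 exons, against 536 codons and 8 exons in Npr3. Prkg1 has 686 codons and spreads over 1200545 bases. RefSeq (GRCm38.p6) gives 1 start each for the receptors and 2 starts 100663 bases apart for Prkg1. The 250 bases before each receptor start are shown because the receptors differed in how far they were apart between groups. Capitals mark matches, on either strand, to CCAAT and to GGGCGG, the GC box. The windows are chr3:90465867-90466116 (minus strand), chr4:43631685-43631934 (plus strand) and chr15:11907372-11907621 (minus strand).
Npr1: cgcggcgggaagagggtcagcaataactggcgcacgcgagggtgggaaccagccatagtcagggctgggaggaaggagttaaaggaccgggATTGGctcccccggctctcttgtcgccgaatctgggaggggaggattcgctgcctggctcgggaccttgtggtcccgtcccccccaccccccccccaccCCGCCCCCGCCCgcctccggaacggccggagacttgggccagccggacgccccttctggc
Npr2: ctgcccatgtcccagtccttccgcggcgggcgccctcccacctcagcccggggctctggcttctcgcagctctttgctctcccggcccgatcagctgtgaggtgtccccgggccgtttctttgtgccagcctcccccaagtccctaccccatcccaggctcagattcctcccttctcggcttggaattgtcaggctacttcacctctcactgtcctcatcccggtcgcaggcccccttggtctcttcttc
Npr3: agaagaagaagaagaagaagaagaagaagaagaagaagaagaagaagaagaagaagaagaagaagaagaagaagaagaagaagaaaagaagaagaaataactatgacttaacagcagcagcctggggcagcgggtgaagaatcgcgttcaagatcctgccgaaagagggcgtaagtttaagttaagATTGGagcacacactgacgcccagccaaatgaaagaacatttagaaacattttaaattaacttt
The Npr1 window has 70.4% G and C, 21 CpG sites, 2 GC boxes and 1 CCAAT on the minus strand of the gene. The Npr2 window has 64.4% G and C, 13 CpG sites and no match to any motif searched. The Npr3 window has 38.8% G and C, 6 CpG sites, 1 CCAAT on the minus strand and an uninterrupted run of 84 bases of a simple repeat of A, G and A. Only 9.7% of 32851 mouse promoter windows of this length had a lower G and C content than Npr3, whereas 91.2% had a lower one than Npr1. The Prkg1 windows had 55.2% and 62.8% G and C, each with 1 GC box, and the upstream one also held a CCAAT. Of all windows, 32.7% held GGGCGG and 33.8% held CCAAT. The TATA box TATAAA (12.4% of all windows) and the E-box CACGTG (6.02%), also searched on both strands, were in none of the 5 windows, and no matches to different motifs overlapped. The bases after the Npr3 start of RefSeq were not found in a GENCODE M21 transcript of Npr3, so this start rests on RefSeq alone.

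Npr3, the clearance receptor, was the member that differed most. It stood at 6.32, 2.99 and 4.93 CPM in sham replicates 1 to 3 (286, 149 and 254 counts). In imBAT replicates 1 to 4 it stood at 269.1, 262.7, 462.4 and 137.4 CPM (14600, 16064, 18800 and 5732 counts). The groups lay far apart, and the lowest imBAT library was 21.7-fold above the highest sham library. Within imBAT, replicate 3 was high and replicate 4 low, a 3.37-fold spread. The means were 4.75 ± 1.67 CPM (SD, n = 3) and 282.9 ± 134.1 CPM (n = 4), an edgeR log2 fold change of 5.90 ± 0.50 (SE). Of the 26393 genes tested, 22 had a larger log2 fold change. With single libraries left out it ranged from 5.51 (without imBAT replicate 3) to 6.16 (without sham replicate 1).

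Npr1, the receptor of the atrial and B-type peptides, was higher in imBAT by a smaller amount. Its sham values were 68.8, 36.4 and 39.3 CPM and its imBAT values 98.3, 113.0, 132.6 and 99.4 CPM. Sham replicate 1 stood well above the other 2 sham libraries and came within 1.43-fold of the lowest imBAT library. The means were 48.1 ± 17.9 CPM and 110.8 ± 16.0 CPM, with a log2 fold change of 1.20 ± 0.23, which was 1.55 without sham replicate 1.

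Npr2, the receptor of C-type peptide, had sham values of 36.7, 19.9 and 25.4 CPM and imBAT values of 82.9, 74.4, 82.7 and 69.1 CPM. The imBAT libraries were close together, with 1.20-fold between the highest and the lowest, and all lay above the sham libraries. The means were 27.3 ± 8.58 CPM and 77.3 ± 6.74 CPM, with a log2 fold change of 1.50 ± 0.20.

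Prkg1, the cyclic GMP kinase, was also higher in imBAT. It stood at 15.9, 6.61 and 9.59 CPM in sham and at 24.5, 27.9, 23.5 and 27.5 CPM in imBAT. The sham libraries spread 2.41-fold, the imBAT libraries 1.19-fold, and the groups did not overlap. The means were 10.7 ± 4.75 CPM and 25.9 ± 2.16 CPM, with a log2 fold change of 1.27 ± 0.27, which was 1.68 without sham replicate 1. Counts per gene do not separate its 2 start sites.

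For all 4 members the groups did not overlap and imBAT was higher, as was so for 26.8% of all genes tested (52.0% did not overlap in either direction). Sham replicate 1 was the highest and sham replicate 2 the lowest sham library for each member. In imBAT no such common order held: replicate 3 was the highest for Npr1 and Npr3 and the lowest for Prkg1. Among sham libraries the summed adipocyte markers were also lowest in replicate 2 (2297 CPM), while replicates 1 and 3 had 4698 and 4907 CPM. The members' full sham order (replicate 1, then 3, then 2) was that of the summed mammary epithelium markers (363.1, 196.8 and 102.2 CPM). It was also that of the summed Schwann cell and nerve, pericyte and smooth muscle, blood endothelial and B cell markers. The other marker lists had other orders. The part of any list in this order was not tested.

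**Figure D1:**
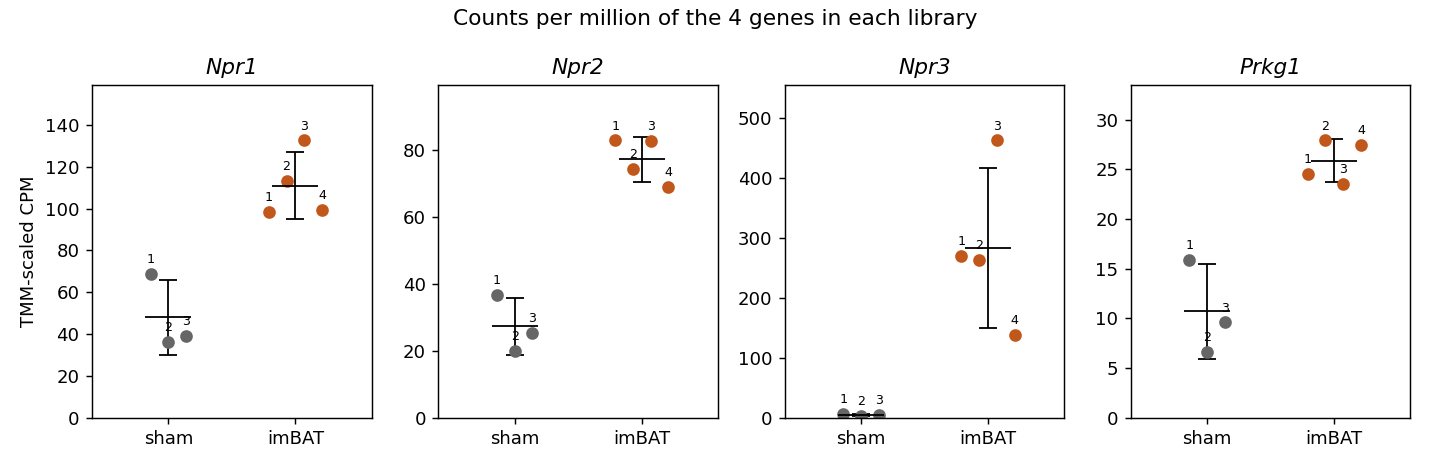
TMM-scaled CPM (linear axes from 0, one scale per gene) of Npr1, Npr2, Npr3 and Prkg1 in 3 sham and 4 imBAT libraries. Points are libraries with their replicate number, the long line is the mean and the bars are the SD; Npr3 goes from 2.99 to 6.32 CPM in sham to 137.4 to 462.4 CPM in imBAT.

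Levels of different genes were compared as CPM per kb of annotated exon. In sham the order was Npr1 at 10.1 ± 3.75, Npr2 at 5.85 ± 1.84, Prkg1 at 0.99 ± 0.44 and Npr3 at 0.51 ± 0.18 CPM per kb. Each gene stood above the next in all 3 sham libraries. Across libraries, however, Npr1 and Npr2 (7.60 to 14.4 and 4.26 to 7.86) overlapped, as did Prkg1 and Npr3 (0.61 to 1.47 and 0.32 to 0.67). In imBAT the order was Npr3 at 30.1 ± 14.3, Npr1 at 23.2 ± 3.34, Npr2 at 16.6 ± 1.45 and Prkg1 at 2.38 ± 0.20 CPM per kb. Npr3 ran from 14.6 to 49.2 and so covered the whole range of Npr1 (20.5 to 27.7) and of Npr2 (14.8 to 17.8). Npr1 lay above Npr2 in every imBAT library, and Prkg1 lay below the receptors throughout.

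The ratio of the clearance receptor to the cyclase receptor Npr1 was thus different in the 2 groups. Npr3 per kb was 0.047, 0.042 and 0.064 of Npr1 in sham replicates 1 to 3. In imBAT replicates 1 to 4 it was 1.40, 1.18, 1.78 and 0.70 of Npr1. The ratio was above 1 in 3 imBAT libraries and below 1 in replicate 4, and the mean was 24.8-fold that of sham. Npr3 made up 2.62 to 3.71% of the summed level per kb of the 3 receptors in sham and 29.1 to 52.0% in imBAT. Npr2 relative to Npr1 was 0.55 to 0.66 in sham and 0.64 to 0.86 in imBAT, with overlap. Prkg1 was 18.2 to 24.4 CPM per 100 CPM of Npr1 in sham and 17.8 to 27.7 in imBAT, with overlap as well. The ratio of Npr3 to Npr1 depends on the length used: per kb of the longest coding sequence it was 0.20 in sham and 4.90 in imBAT, against 0.051 and 1.27 per kb of exon, and with coding length Npr3 was the highest of the 4 genes in every imBAT library.

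**Figure D2:**
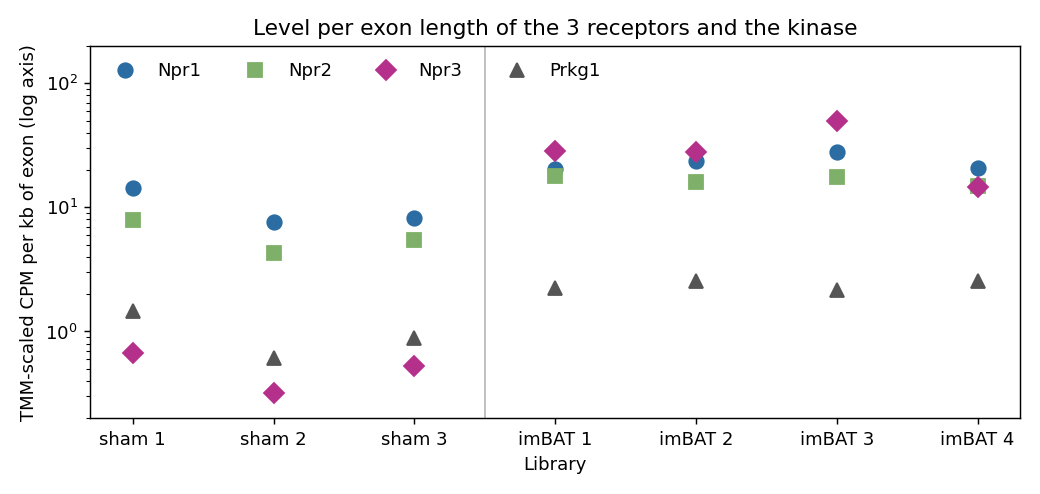
TMM-scaled CPM per kb of annotated exon (log axis) of the 3 receptors and Prkg1 in each of the 7 libraries, with sham on the left of the grey line. Npr3 is the lowest of the 4 genes in each sham library and the highest in imBAT replicates 1 to 3.

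Since adipocyte markers differed so widely, each member was also set against them. Per 1000 CPM of the 12 summed adipocyte markers, Npr3 was 1.35, 1.30 and 1.01 CPM in sham and 10.5, 18.7, 13.7 and 5.39 CPM in imBAT, without overlap. Npr3 was therefore higher in imBAT on this scale too, and of the 12 markers only leptin (Lep, log2 fold change 7.76) had a larger log2 fold change than Npr3. The other 3 members had the lower mean in imBAT on this scale. Npr1 was 14.6, 15.8 and 8.00 CPM per 1000 CPM of adipocyte markers in sham and 3.82, 8.04, 3.92 and 3.90 in imBAT. Npr2 was 5.17 to 8.65 in sham and 2.44 to 5.29 in imBAT, and Prkg1 was 1.95 to 3.39 in sham and 0.70 to 1.99 in imBAT. For these 3 genes the groups overlapped on the summed scale, with sham replicate 3 just below imBAT replicate 2. Set against Adipoq alone (per 1000 CPM), all 3 were lower in imBAT without overlap. Npr1 was 214.3 to 474.9 for sham against 77.7 to 186.3 for imBAT. Npr2 was 138.4 to 259.5 against 49.13 to 122.6, and Prkg1 52.35 to 106.1 against 13.98 to 46.02. Cfd, the most abundant of the 12 markers, was lowest among imBAT libraries in replicate 2 (4002.5 CPM). The part of Cfd in the overlap was not tested. The 12 adipocyte markers had a median log2 fold change of 3.15, and all of them exceeded Npr1, Npr2 and Prkg1.

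Npr1, Npr2 and Prkg1 are also known from vessels and connective tissue, so markers of those cells were set beside them. Of 9 blood endothelial markers 7 rose and 1, Pecam1, fell (median log2 fold change 0.97, summed level 745.9 to 863.2 CPM in sham and 1030 to 1349 CPM in imBAT). The mural cell list (pericytes and smooth muscle) had 10 markers, of which 7 rose and 1 fell (median 1.00, 635.8 to 867.5 CPM in sham and 1151 to 1785 CPM in imBAT). Acta2, the smooth muscle actin, rose from 81.7 ± 23.6 to 263.6 ± 85.5 CPM (edgeR adjusted p = 0.00309). Of 10 adipose progenitor markers 8 rose and 1 fell (median 1.63). The log2 fold changes of Npr1, Npr2 and Prkg1, 1.20 to 1.50, lay between the medians of the mural and the progenitor lists. Per 1000 CPM of pericyte and smooth muscle markers, Prkg1 was 10.4 to 18.4 CPM in sham and 15.4 to 21.3 CPM in imBAT, and Npr1 was 57.2 to 79.3 and 63.3 to 86.9 CPM, so both overlapped between groups on that scale. Npr2 overlapped on that scale too (31.2 to 42.3 and 41.7 to 72.0 CPM). Per 1000 CPM of blood endothelial markers, Npr2 was 26.6 to 42.5 CPM in sham and 53.9 to 80.5 CPM in imBAT, without overlap. Pecam1, the marker that fell, had the highest level of that list in sham (311.6 to 351.2 CPM, against 219.5 to 281.7 CPM in imBAT). The part of Pecam1 in this gap was not tested. On the endothelial scale Npr1 (48.7 to 79.7 and 77.5 to 103.2 CPM) and Prkg1 (8.86 to 18.4 and 18.3 to 23.8 CPM) overlapped. Per 1000 CPM of adipose progenitor markers, Npr1, Npr2 and Prkg1 all overlapped.

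**Figure D3:**
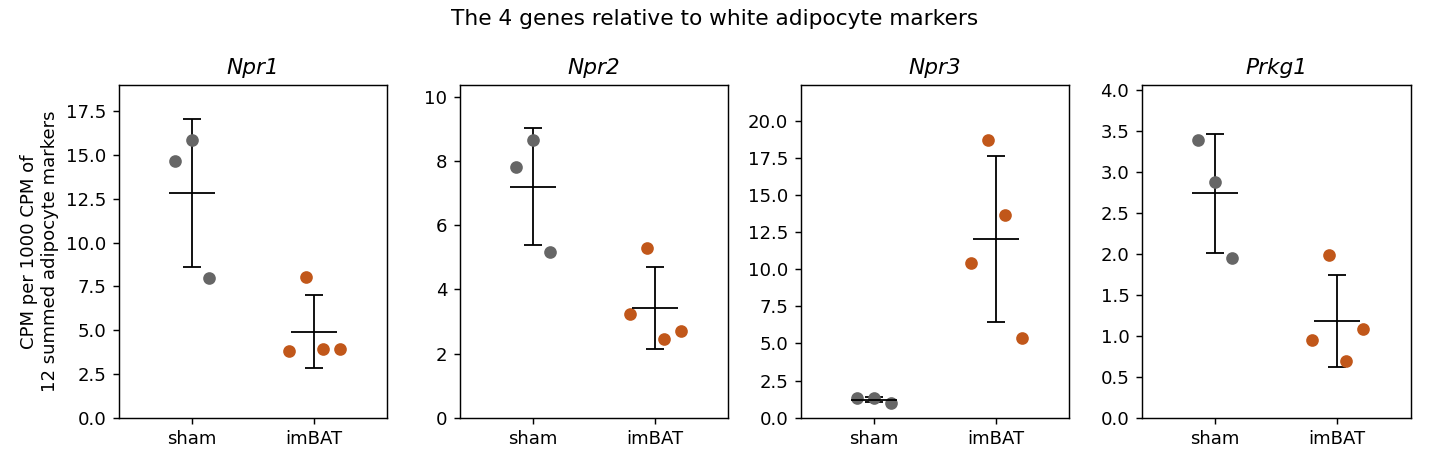
CPM of each gene per 1000 CPM of 12 summed white adipocyte markers (linear axes from 0), with points for libraries, the mean as a long line and the SD as bars. Npr3 is higher in all 4 imBAT libraries (5.39 to 18.7 against 1.01 to 1.35), while Npr1, Npr2 and Prkg1 have the lower mean in imBAT with groups that overlap.

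The peptides themselves were barely detected in the fat pad. The atrial peptide gene Nppa had 1 to 14 counts per library, the B-type gene Nppb 0 to 6, the C-type gene Nppc 0 to 6, and Ostn, which encodes the Npr3 ligand osteocrin, 0 to 2. All 4 were too low to test. Of 50 genes, these 4 included, of peptide handling and cyclic GMP signalling, 42 could be tested. Of these 20 (47.6%) rose and 3 (7.14%) fell in imBAT, beside 24.3% and 19.3% of all genes tested. Their median log2 fold change was 0.52, against -0.01 for all genes. With upper-quartile scaling the counts were 16 higher and 6 lower, and all genes then had a median of -0.25.

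Among the enzymes that process or degrade the peptides, 3 of 4 rose. Neprilysin (Mme), a membrane peptidase that cleaves natriuretic peptides, rose from 30.9 ± 7.88 to 92.5 ± 25.4 CPM (log2 fold change 1.58 ± 0.24, edgeR adjusted p = 0.00218). The proprotein convertase Furin rose 1.78-fold and the insulin-degrading enzyme Ide 1.41-fold, the latter not called with upper-quartile scaling (adjusted p = 0.0602). Corin, which cuts the atrial peptide precursor, was low at 0.79 ± 0.19 and 0.58 ± 0.29 CPM and was not called (adjusted p = 0.46).

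The second source of cyclic GMP is soluble guanylate cyclase, the nitric oxide receptor, and its 3 main subunit genes rose. Gucy1a1 rose 1.64-fold, Gucy1a2 1.94-fold and Gucy1b1 2.16-fold, the last from 7.69 ± 1.02 to 16.6 ± 1.51 CPM (edgeR adjusted p = 0.00143). Gucy2e, a membrane cyclase of the retina, rose 3.54-fold but only to 1.19 ± 0.15 CPM, and lost its call once sham replicate 2 was left out (adjusted p = 0.0543). Gucy1b2, Gucy2d and Gucy2f had 0 to 9 counts per library and were too low to test. The endothelial nitric oxide synthase Nos3 rose 4.06-fold, from 12.8 ± 2.15 to 52.2 ± 11.6 CPM (adjusted p = 0.000816), with 10.4 to 14.2 CPM in sham and 43.7 to 69.1 CPM in imBAT. Nos1 stood at 7.63 ± 1.88 and 15.1 ± 6.88 CPM (adjusted p = 0.0536), and was called without imBAT replicate 3 or 4 and with DESeq2 (adjusted p = 0.0487, 0.0235 and 0.0188). Nos2 was not called (adjusted p = 0.17).

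Phosphodiesterases that break down cyclic GMP moved in both directions. Of 10 tested, 7 rose, 2 fell and 1, Pde2a, was not called (edgeR adjusted p = 0.19). Pde2a was singled out after its values were seen. Pde1a, a calcium-dependent enzyme, rose 4.70-fold from 7.03 ± 0.50 to 33.1 ± 7.46 CPM (edgeR adjusted p = 0.000803). Its relatives Pde1b and Pde1c fell 2.17-fold and 2.57-fold, Pde1b from 44.8 ± 2.36 to 20.7 ± 1.44 CPM and Pde1c from 11.7 ± 1.33 to 4.54 ± 1.20 CPM. Pde3b, which breaks down cyclic AMP in adipocytes and is inhibited by cyclic GMP, rose 2.63-fold to 312.3 ± 27.5 CPM. Pde5a, the sildenafil target, and Pde9a, which has a high affinity for cyclic GMP, were singled out after their values were seen. They rose 1.96-fold (9.74 ± 1.87 to 19.1 ± 3.55 CPM, adjusted p = 0.00572) and 2.00-fold (adjusted p = 0.0216), and the call of Pde9a was lost when sham replicate 2 or 3 was left out (adjusted p = 0.0758 and 0.0787). Of the exporters of cyclic nucleotides, Abcc5 rose 1.45-fold (adjusted p = 0.0247, lost on leaving out sham replicate 2 or 3 and with upper-quartile scaling, adjusted p up to 0.123) and Abcc4 stood at 43.1 ± 1.17 and 42.5 ± 4.45 CPM (adjusted p = 0.89).

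Downstream of the kinase, few genes were called. Of 8 kinase relatives, partners and substrates none rose and 1, Vasp, fell, from 189.2 ± 4.90 to 127.9 ± 18.8 CPM (edgeR log2 fold change -0.56 ± 0.12, adjusted p = 0.00763). Vasp is an actin regulator that the kinase phosphorylates. The T cell and B cell markers, all of which fell, had median log2 fold changes of -1.51 and -1.79. The part of cell content in the lower levels of Vasp, Pde1b and Pde1c was not tested. The second kinase gene Prkg2, singled out after its values were seen, stood at 1.71 ± 0.29 and 1.93 ± 0.30 CPM (adjusted p = 0.56). Mrvi1, which encodes a partner of the kinase at the calcium store, was at 26.2 ± 4.36 and 34.0 ± 4.99 CPM (adjusted p = 0.0788, and 0.045 without sham replicate 1). The myosin phosphatase subunit Ppp1r12a and the calcium channel Itpr1 were not called either (adjusted p = 0.0947 and 0.0887), but with upper-quartile scaling they were (log2 fold change -0.46 and -0.49, adjusted p = 0.00763 and 0.00984). Itpr1 was also called without imBAT replicate 2 and Ppp1r12a without imBAT replicate 3 (adjusted p = 0.023 and 0.0473).

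Of the inhibitory G protein subunits to which Npr3 can couple, Gnai1 rose and Gnai2 and Gnai3 were not called. Gnai1 had 11.7, 7.05 and 15.5 CPM in sham and 111.9, 78.7, 191.2 and 92.7 CPM in imBAT. The groups were well apart, and imBAT replicate 3 was again the highest. Its log2 fold change was 3.37 ± 0.39 (10.4-fold, edgeR adjusted p = 0.00104), beside a median of 3.15 for the white adipocyte markers. The part of adipocyte content in the Gnai1 level was not tested. Gnai2 stood at 469.6 ± 31.2 and 463.3 ± 38.6 CPM (adjusted p = 0.90), and Gnai3 at 84.2 ± 4.55 and 92.2 ± 4.52 CPM (adjusted p = 0.25).

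Targets through which the pathway acts on fat cells were split between the lipolytic machinery and the rest. Hormone-sensitive lipase (Lipe) rose 6.33-fold to 994.8 ± 304.0 CPM, perilipin 1 (Plin1), the lipid droplet coat protein, 8.75-fold to 1399 ± 433.7 CPM and the triglyceride lipase Pnpla2 5.13-fold to 1837 ± 472.0 CPM (edgeR adjusted p = 0.00097, 0.000867 and 0.00102). These 3 genes are themselves abundant in adipocytes, whose marker list had a median log2 fold change of 3.15. The p38 kinase Mapk14 stood at 117.4 ± 7.84 and 136.2 ± 7.75 CPM (adjusted p = 0.092). Ppargc1a, a coactivator of mitochondrial genes singled out after its values were seen, stood at 5.87 ± 5.46 and 7.57 ± 3.46 CPM (log2 fold change 0.37, adjusted p = 0.64, and 1.47 with adjusted p = 0.0377 without sham replicate 1). Ucp1, the heat-producing uncoupling protein, had 8 to 12 counts in sham and 2, 8, 83 and 6 counts in imBAT replicates 1 to 4 and was too low to test.

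**Figure D4:**
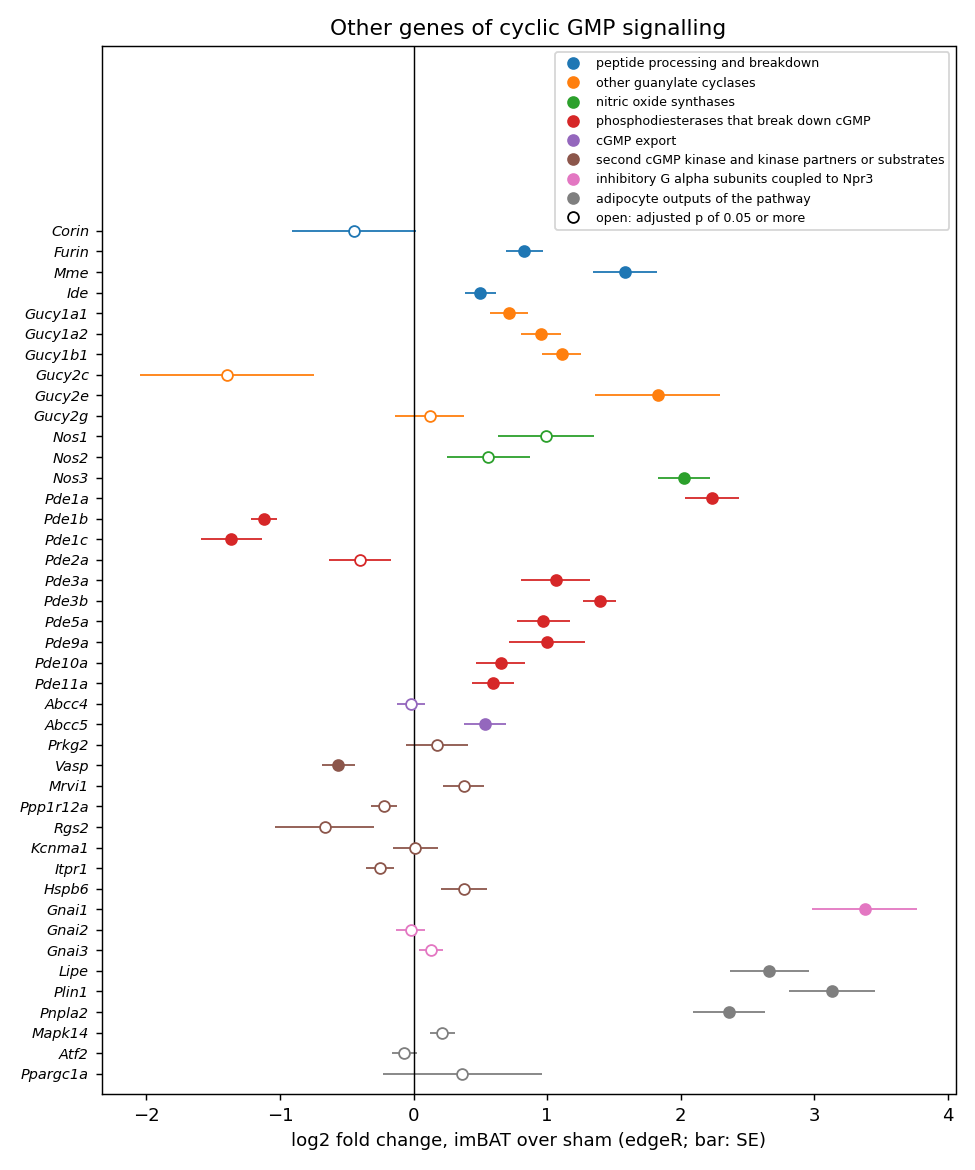
edgeR log2 fold change of imBAT over sham with its SE for the 42 tested genes of peptide handling and cyclic GMP signalling, coloured by role (filled: adjusted p under 0.05). Gnai1 (3.37), Plin1 (3.13) and Lipe (2.66) lie furthest to the right, and Pde1b (-1.12), Pde1c (-1.36) and Vasp (-0.56) are the filled points below 0.

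The genes with the profile most like each member were listed by the root mean square difference of centred log2 CPM over the 7 libraries, among 14393 genes. Nearest to Npr3 were albumin (Alb, difference 0.28, 0.19 CPM in sham and 16.2 CPM in imBAT), the lipid droplet gene Pnpla3 (0.36, 2.81 and 207.0 CPM) and the synuclein Sncg (0.43, 7.17 and 541.1 CPM). Mir6392 (0.51, 0.11 and 6.33 CPM) and Lctl (0.57, 0.16 and 8.74 CPM) followed. Alb, Mir6392 and Lctl reached the required mean of at least 1 CPM only through imBAT. Their sham values lie near the floor, so their likeness to Npr3 largely restates the size of the difference between groups. Nearest to Npr1 were Ccdc159 (0.061), Stox2, Slc22a17, Shroom4 and Cdc42bpa (0.11). Nearest to Npr2 were the splicing factor Rbfox2 (0.065), Zfhx3, Cd109, Myo5c and the syndecan Sdc1 (0.091). Nearest to Prkg1 were Elfn1 (0.063), Fam83h, the aminopeptidase Anpep, Mpped2 and Map3k21 (0.10). Mpped2 also had a sham mean under 1 CPM (0.94, against 2.38 CPM in imBAT). The log2 fold changes of these genes were near the member's own: 1.14 to 1.30 for Npr1, 1.47 to 1.66 for Npr2 and 1.31 to 1.37 for Prkg1. Their likeness too thus in part restates the size of the difference between groups. The root mean square differences for Npr3 were larger than those for the others. By Pearson correlation in place of this measure, 0 of the 5 genes for Npr3, 1 for Npr1, 2 for Npr2 and 1 for Prkg1 were among the nearest 5, so these lists depend on the measure.

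Reads shared with other genes bear on the receptors only in small stretches. Each receptor overlaps an antisense gene on the opposite strand, Gm16048 by 559 exon bases of Npr1, Gm12473 by 266 of Npr2 and Gm5144 by 321 of Npr3. Gm16048 had 3 to 16 counts per library. Gm12473 had 120 to 136 counts in sham and 282 to 462 in imBAT, and Gm5144 had 0 to 2 counts in sham and 27 to 50 in imBAT. The strand setting of the counting is not given in the sources used here, so reads of a receptor and of its antisense gene may not be separable. Of all 50-base runs in the transcripts, 7.57% for Npr1, 4.36% for Npr2, 2.41% for Npr3 and 0.0185% for Prkg1 also occur in another gene, in the case of the receptors only in these antisense genes.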

How the data were processed

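The authors deposited 1 table of raw counts per gene. Per the labels' protocols, total RNA of the fat pad was sequenced on an Illumina instrument, with STAR 2.7.9a as aligner and the Ensembl 101 assembly as reference. The submitters' processing notes also list Salmon 1.5.2, featureCounts 2.0.3, limma, edgeR and Subread without saying what each did. The table has 55774 rows, and 287 rows whose identifier and counts had already occurred were left out. All 7 columns were matched to libraries by name. Within a group the libraries differed beyond sampling noise (chi-square per degree of freedom 20.4 to 216.1).

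All genes were fitted with edgeR 4.0.16 in R 4.3.3 (quasi-likelihood F test, robust, TMM scaling, minimum count 10, group alone, 5 residual degrees of freedom). Benjamini-Hochberg adjustment ran over the 26393 genes tested, with calls under 0.05. The SE of a log2 fold change was derived from its F value. log2 CPM used a prior count of 2. Exon and coding lengths and coordinates come from GENCODE M21 (GRCm38), and promoters from RefSeq, in which all 4 members matched. Members, pathway and marker lists were chosen with earlier results of these data known. Named pathway genes are the 4 with the smallest p per role, the ligands and those too low to test, except where stated; the genes nearest a member are the 5 with the smallest difference at a mean of at least 1 CPM, clone names and receptor segments left out. The steps were also run on simulated counts, with 1 spread for all genes and far fewer changed genes than here. That run cannot show how they behave on data with shifts as wide as these. Alternatives were RLE and upper-quartile scaling, 2 filters, DESeq2 1.42.0, limma 3.58.1 voom, a block, leaving out each library, and an adjusted p under 0.10; coding length was added after seeing the data.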

Additional observations from a re-analysis of the deposited data

Results flagged for a closer look

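In the imBAT libraries, 1 of the 44 quantities examined for a library far from the others stood out, and chance flags about 1 in 20 groups of 4. Npr1 per 1000 CPM of the summed white adipocyte markers was 8.04 in imBAT replicate 2 against 3.82 to 3.92 in the other 3 imBAT libraries. That library had the lowest adipocyte marker sum of its group (14067 CPM), while its Npr1 level (113.0 CPM) lay inside the range of the others. The part of the marker sum in this value was not tested.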

How the results depend on the processing

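The log2 fold changes of the 4 members stayed above 0 in all 14 alternative fits. They ranged from 0.98 to 1.55 for Npr1, 1.27 to 1.78 for Npr2, 5.51 to 6.16 for Npr3 and 1.02 to 1.68 for Prkg1, and the highest value of each came without sham replicate 1. The number of pathway genes that fell was 6 with upper-quartile scaling, 5 with voom and 5 at an adjusted p under 0.10, against 3. Leaving out single libraries gave 16 to 21 genes that rose and 3 to 4 that fell. With coding length the ratio of Npr3 to Npr1 was 0.197 in sham and 4.90 in imBAT. Values near 0 took the other sign for Prkg2 (-0.065), Gnai3 (-0.107) and Mapk14 (-0.024) with upper-quartile scaling and for Gnai2 with voom (0.049). Leaving out single libraries gave -0.078 to 0.037 for Gnai2 (above 0 without sham replicate 1 or imBAT replicate 2), -0.019 to 1.47 for Ppargc1a (below 0 without sham replicate 2) and -0.065 to 0.019 for Abcc4 (above 0 without imBAT replicate 4). None of these 6 genes was called in the main comparison. Voom also called Mrvi1, Ppp1r12a, Itpr1 and Mapk14 (adjusted p = 0.0199, 0.0238, 0.0145 and 0.0169). The cause was not tested. Upper-quartile scaling left 36.6% of all calls higher in imBAT, in place of 55.8%.

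The number that opens each title is shared by 3 pairs of sham and imBAT libraries. Deviations from the group means correlated at -0.01, 0.10 and 0.11 within those pairs, and at -0.14 to 0.04 between libraries with different numbers. What the number stands for is not given, and 3 pairs cannot show whether it marks anything shared. With that number as a block, 20 pathway genes rose and 4 fell, Nos1 and Itpr1 were called (adjusted p = 0.0302 and 0.0387), Pde9a was not (0.0838), Gnai2 stood at 0.0091, and the members' log2 fold changes were 1.24, 1.56, 5.83 and 1.32 in the order Npr1, Npr2, Npr3 and Prkg1. In the same order, the SEs of these log2 fold changes were 0.12, 0.15, 0.18 and 0.29, against 0.23, 0.20, 0.50 and 0.27 without the block. The number of imBAT replicate 2 is shared with no sham library, so with the block that library adds nothing to the group difference. The blocked values thus rest on the 3 pairs and on fewer residual degrees of freedom. Their smaller SEs cannot be read as a gain in precision. The sham counts of Npr3 (149 to 286) and the counts of the ligands limit the precision of those levels.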
